A study of Mus musculus with 17 samples.

Results

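The cell cycle and proliferation genes are a set of 40 genes active in DNA synthesis (S phase, 17 genes) or in G2 and mitosis (G2/M, 23 genes). They were chosen by gene symbol from the table of estimated counts per gene and described over 6 groups of mice. All 40 were among the 31245 genes of the table, and all 40 were tested, as were 26946 genes whose counts summed to 20 or more over the libraries. No member was at 0 in any library. The members' summed counts were 1037 to 2903 per library, of library totals between 4116118 and 9237356 (median 7524757).

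RNA of whole mouse lung was sequenced from 17 mice, 1 library per mouse. The mice were wildtype Sv/129 (WT), PPARα null (KO) or humanized PPARα (KI), and PPARα is a nuclear receptor that responds to fatty acids and to perfluorooctanoic acid (PFOA), a long-lived industrial surfactant. From 6 weeks of age all mice ate a diet modelled on that of American adults, and for 14 weeks they drank sucrose water (vehicle) or the same water with the higher of the PFOA levels that the study used (Hi-PFOA in the labels). WT vehicle had 2 libraries (mice 107 and 122), WT PFOA 3 (50, 56, 65), KO vehicle 3 (137, 145, 149), KO PFOA 3 (52, 154, 155), KI vehicle 3 (102, 116, 135) and KI PFOA 3 (57, 80, 139).

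The WT mice were purchased, whereas KO and KI mice were bred from PPARα null and human PPARα heterozygous pairs, so genotype and breeding source cannot be told apart. All 6 KO mice were female, and the WT and KI groups held both sexes. The 3 KO PFOA libraries carried a single i5 index, which 1 WT PFOA and 1 KI vehicle library also carried. No KO vehicle library carried it, so within KO the exposure and the i5 index cannot be told apart. Both WT vehicle libraries carried another index, shared with WT PFOA 65 and KI PFOA 57. In 2 libraries the share of counts in protein-coding genes was low, 61.3% in KO vehicle 137 and 65.3% in WT vehicle 122, against 74.4% to 80.4% in the other 15. Ppara itself was at 8.82 to 11.8 CPM (counts scaled to a common library size, TMM-normalized) in the libraries labelled KO, above the 4.39 to 7.21 CPM of WT, and at 9.08 to 20.4 CPM in KI. Counts over a whole gene do not separate the disrupted part of a gene from the rest, so Ppara did not check the KO label, and WT, KO and KI below name the labels. Markers of alveolar type 2 cells were at 3214 to 10080 summed CPM over the 17 libraries, so lung epithelium was present in each.

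Dividing cells copy their DNA in S phase and separate it in mitosis. E2F factors turn on S phase genes such as the MCM helicase subunits, and a complex that binds a short element called CHR, together with NF-Y at CCAAT boxes, restricts mitotic genes to G2/M. In adult lung few cells divide, and transcripts of these genes are used as a measure of proliferation. In bulk tissue, a smaller number of dividing cells and less RNA per dividing cell cannot be told apart.

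Promoter stretches of 5 members are shown because they hold the elements that divide the list, and because Top2a, Mki67 and Mcm6 are the members with the smallest p-values between genotypes, with Plk1 and Mcm5 as members of each phase that did not pass. Each is the 160 bases before the RefSeq start on the gene's own strand (GRCm38.p6), with capitals marking the motifs on either strand: CHR (TTTGAA or TTTAAA), the CCAAT box (CCAAT), and E2F (TTTCCCGC, TTTGGCGC, TTTCGCGC or TTTGCCGC). On the opposite strand the CHR reads TTCAAA or TTTAAA and the CCAAT box ATTGG. Top2a lies on the minus strand (chr11:99024190-99024349), as do Mki67 (chr7:135716380-135716539) and Mcm6 (chr1:128359706-128359865), and Plk1 (chr7:122159275-122159434) and Mcm5 (chr8:75109349-75109508) lie on the plus strand.
Top2a: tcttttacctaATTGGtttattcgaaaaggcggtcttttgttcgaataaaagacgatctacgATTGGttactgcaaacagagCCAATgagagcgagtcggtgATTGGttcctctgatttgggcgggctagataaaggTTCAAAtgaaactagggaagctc
Mki67: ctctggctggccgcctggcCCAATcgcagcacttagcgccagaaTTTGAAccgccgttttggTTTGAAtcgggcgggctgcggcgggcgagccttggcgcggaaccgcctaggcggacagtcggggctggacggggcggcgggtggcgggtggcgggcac
Plk1: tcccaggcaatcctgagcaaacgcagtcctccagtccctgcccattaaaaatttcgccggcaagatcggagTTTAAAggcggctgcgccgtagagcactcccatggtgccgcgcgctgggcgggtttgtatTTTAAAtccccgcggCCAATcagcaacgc
Mcm6: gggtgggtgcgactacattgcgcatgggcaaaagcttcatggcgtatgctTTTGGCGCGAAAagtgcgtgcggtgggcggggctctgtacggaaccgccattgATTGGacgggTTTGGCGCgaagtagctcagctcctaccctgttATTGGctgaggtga
Mcm5: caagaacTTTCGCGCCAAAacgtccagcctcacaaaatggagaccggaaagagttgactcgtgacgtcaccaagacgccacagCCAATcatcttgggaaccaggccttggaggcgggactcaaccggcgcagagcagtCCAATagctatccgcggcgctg

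The G2/M stretches hold CHR and CCAAT letters, and the Mcm stretches hold E2F letters with CCAAT. In Mcm6 and in Mcm5, a pair of E2F matches overlap each other on opposite strands. Of the 40 members, 33 had a RefSeq promoter. In the 250 bases before the start, a CHR was found in 12 of 19 G2/M members (63.2%), in 3 of 14 S members (21.4%) and in 28.1% of 27025 genes. A CCAAT box was found in 17 of 19 G2/M members (89.5%), in 9 of 14 S members (64.3%) and in 37.5% of all genes. An E2F motif was found in 5 of 14 S members (35.7%), in 1 of 19 G2/M members (5.26%) and in 2.16% of all genes. In the 100 bases before the start, the E2F motif was found in 1 of 14 S members (7.14%), in 0 of 19 G2/M members and in 0.981% of all genes. In the longer window, CHR and CCAAT stood together in 11 of 19 G2/M members (57.9%), in 2 of 14 S members (14.3%) and in 10.1% of all genes. These matches describe letters and do not show that a factor was bound.

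Per kilobase of exon, the members at the highest levels were the helicase subunits Mcm4 (6.10 CPM per kb), Mcm7 (5.42), Mcm3 (4.37) and Mcm6 (3.61), followed by Mki67 (3.46), whose protein coats mitotic chromosomes and is the usual stain for cycling cells. The lowest were the checkpoint kinase gene Ttk (0.164 CPM per kb) and the B-type cyclin gene Ccnb1 (0.191 CPM per kb). A level of 3 counts corresponds to 0.325 to 0.729 CPM depending on the library, so values of Ccnb1, Ttk, Ccne1, Aurkb and Cdk1 rest on few counts.

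The 23 G2/M members together reached 105.2 (mouse 107) and 90.1 CPM (mouse 122) in WT vehicle. WT PFOA ranged from 73.0 to 102.3 CPM. KO vehicle was at 126.7 to 148.9 CPM and KO PFOA at 119.2 to 146.9 CPM. The summed level was higher in each of the 6 KO libraries than in each of the 5 WT libraries. KI vehicle was at 96.1 to 103.2 CPM, among the WT values, and KI PFOA at 102.2 to 136.3 CPM, reaching into the KO values. Without Mki67, the most abundant of them in CPM, the G2/M sum was 51.8 to 74.3 CPM in WT, 77.3 to 100.4 in KO and 66.3 to 92.9 in KI. The 17 S members behaved otherwise, with sums of 139.2 to 179.2 CPM in WT, 112.2 to 178.4 in KO and 141.7 to 178.4 in KI, and all 3 genotypes overlapped. The ratio of the G2/M to the S sum was 0.475 to 0.647 in WT, 0.692 to 1.13 in KO and 0.579 to 0.844 in KI. Sums over members are descriptions and were given no test.

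**Figure D1:**
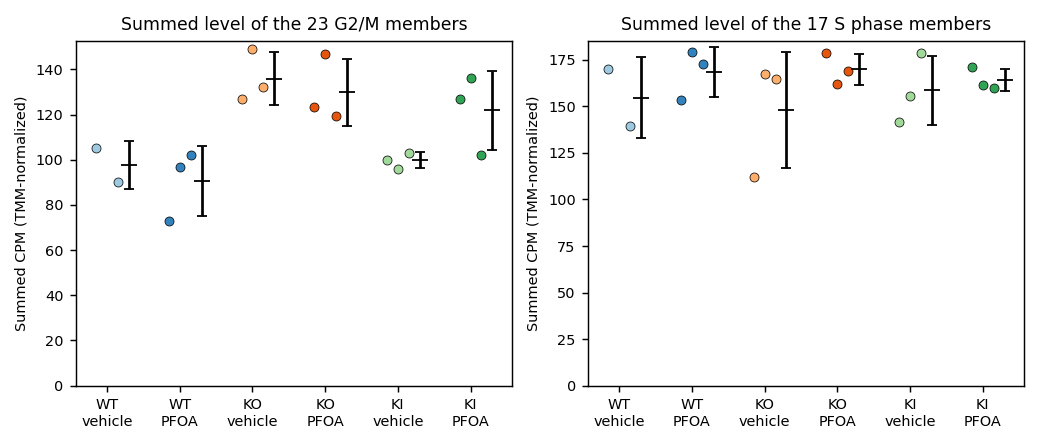
Summed CPM of the 23 G2/M members (left) and the 17 S phase members (right) in each library of the 6 groups, with each point 1 mouse and bars for the mean ± SD. G2/M sums were 119.2 CPM or more in KO and 105.2 CPM or less in WT, while the S sums of the genotypes overlapped.

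Members of the same phase did not vary together strongly over the 17 libraries. Over pairs of G2/M members the median Spearman correlation was 0.211, and it was above 0 in 205 of 253 pairs. It was 0.0331 over 136 pairs of S members and 0.0123 over 391 mixed pairs. The pairs most alike were Nusap1 with Top2a (0.779), Mki67 with Top2a (0.770) and Nusap1 with Mki67 (0.740), and the pair most opposed was Mcm6 with Tyms (-0.672). These correlations describe the 17 libraries, which share depth and genotype structure. Several members rest on few counts, where counting noise limits how high a correlation can be.

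**Figure D2:**
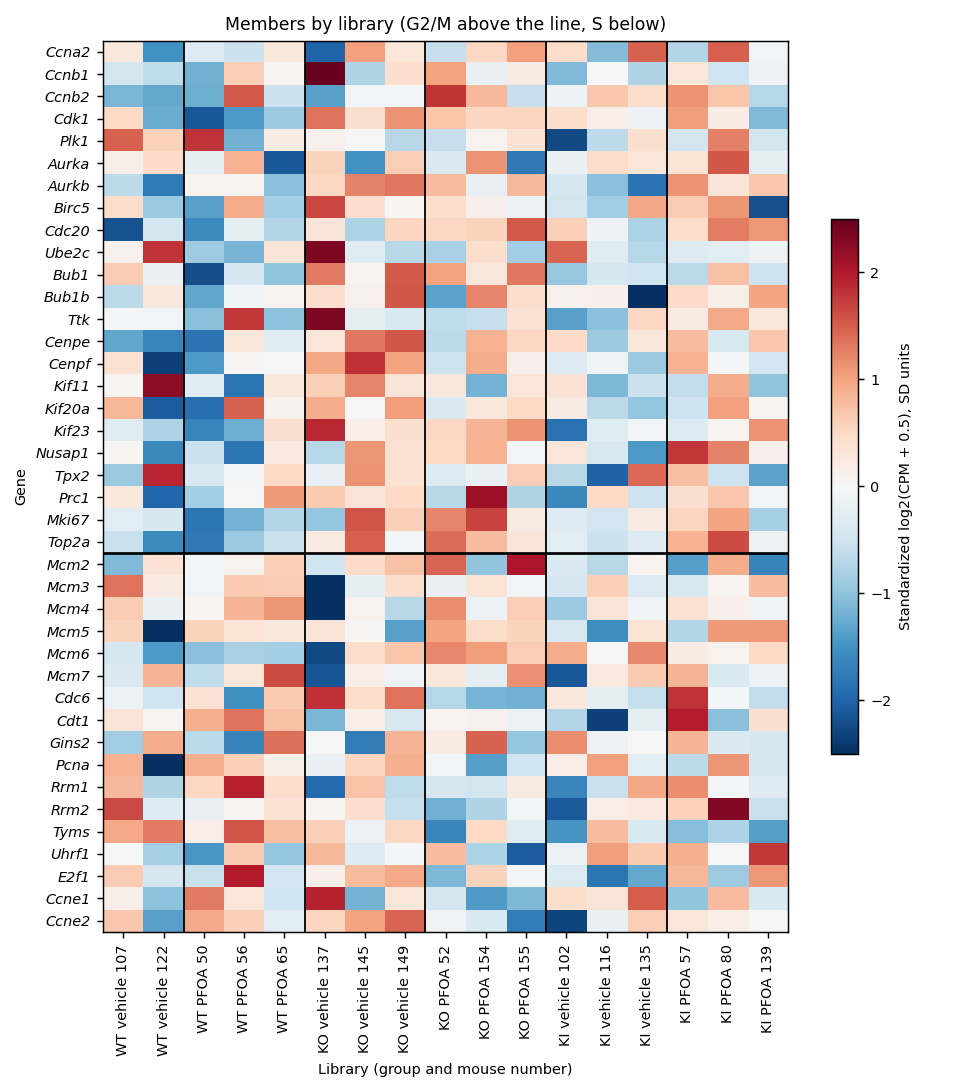
Standardized log2(CPM + 0.5) of each member (rows) in each of the 17 libraries (columns, by group and mouse number), G2/M members above the line and S members below. KO columns hold more red than WT columns in the upper block, and Mcm6 is blue in the 5 WT libraries and in KO vehicle 137.

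PFOA against vehicle asks whether exposure moved the members within a genotype. With edgeR's quasi-likelihood test, no member passed an adjusted p under 0.2 with a fold change over 2 in WT, in KO or in KI, and the share of all genes called was 0% in each. DESeq2 also called 0 members in the 3 genotypes. At an unadjusted p under 0.05 there were 0 of 40 members in WT (7.35% of all genes), 3 in KO (9.79% of all genes) and 2 in KI (2.59% of all genes). The median log2 fold change of the members was 0.06 in WT, -0.10 in KO and 0.21 in KI, beside 0.04, -0.03 and 0.01 over all genes. The median standard error of a member's log2 fold change was 0.44, 0.38 and 0.39, so a 2-fold change of a typical member was under 3 standard errors with 2 or 3 mice per group.

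Mki67 was at 31.3 and 30.1 CPM in WT vehicle and at 21.2, 24.9 and 28.0 in WT PFOA. In KO it was at 26.3, 50.4 and 39.3 CPM on vehicle and 46.1, 51.9 and 35.7 on PFOA. In KI it was at 31.04, 29.8 and 35.7 CPM on vehicle and 38.7, 43.4 and 27.3 on PFOA. Both WT vehicle libraries were above all WT PFOA libraries, and the waters overlapped in KO and KI, with no p under 0.05 in any of them. Top2a, the topoisomerase that untangles sister chromatids, was at 9.99 and 7.86 CPM in WT vehicle and at 7.48, 9.21 and 10.02 in WT PFOA. It was at 11.98, 16.04 and 11.3 CPM in KO vehicle and 15.7, 13.6 and 12.3 in KO PFOA. It was at 10.7, 10.1 and 10.5 CPM in KI vehicle and 13.9, 16.6 and 11.0 in KI PFOA. The KI waters did not overlap for Top2a, with a log2 fold change of 0.41 (SE 0.20) at an edgeR adjusted p of 1.0.

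In KO, the 3 members with an unadjusted p under 0.05 were Cdc6, Ccne2 and Mcm4. Cdc6, a loader of the helicase onto origins, was at 3.92, 2.25 and 3.27 CPM on vehicle and at 1.33, 1.07 and 1.05 on PFOA. All KO vehicle values were above all KO PFOA values, with a log2 fold change of -1.43 (SE 0.47, edgeR adjusted p = 0.473). Ccne2, an E-type cyclin that drives entry into S phase, was at 2.99, 3.80 and 4.77 CPM on vehicle and 2.13, 1.81 and 0.748 on PFOA, also without overlap (log2 fold change -1.29, SE 0.53, edgeR adjusted p = 0.483). With the i5 index as a covariate the log2 fold change of Ccne2 was only -0.26, while that of Cdc6 was -1.63 to -1.26 over the other settings. Mcm4 was at 8.52 (mouse 137), 21.8 and 17.5 CPM on vehicle and at 29.4, 20.3 and 25.3 on PFOA (log2 fold change 0.62, SE 0.25, edgeR adjusted p = 0.483). The Mcm4 values overlapped, and the lowest was that of the library with the low protein-coding share. None of the 3 passed after adjustment over all genes.

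In KI, Aurkb, the kinase of the chromosomal passenger complex, was at 0.637, 0.382 and 0.141 CPM on vehicle and at 1.60, 1.03 and 1.26 on PFOA. Nusap1, a microtubule bundling protein of the spindle, was at 3.02, 2.16 and 1.27 CPM on vehicle and at 5.82, 4.63 and 2.80 on PFOA. Their log2 fold changes were 1.72 (SE 0.65) and 1.05 (SE 0.45), both at an edgeR adjusted p of 1.0. Aurkb did not overlap between waters, while Nusap1 did, and the share of all genes without such overlap was not counted. Of the 23 G2/M members, 20 were above 0 in KI (median log2 fold change 0.34), beside 50.8% of all genes, and in WT 11 and in KO 7 of the 23 were above 0. Of the 17 S members, 11 were above 0 in WT, 9 in KO and 11 in KI.

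**Figure D3:**
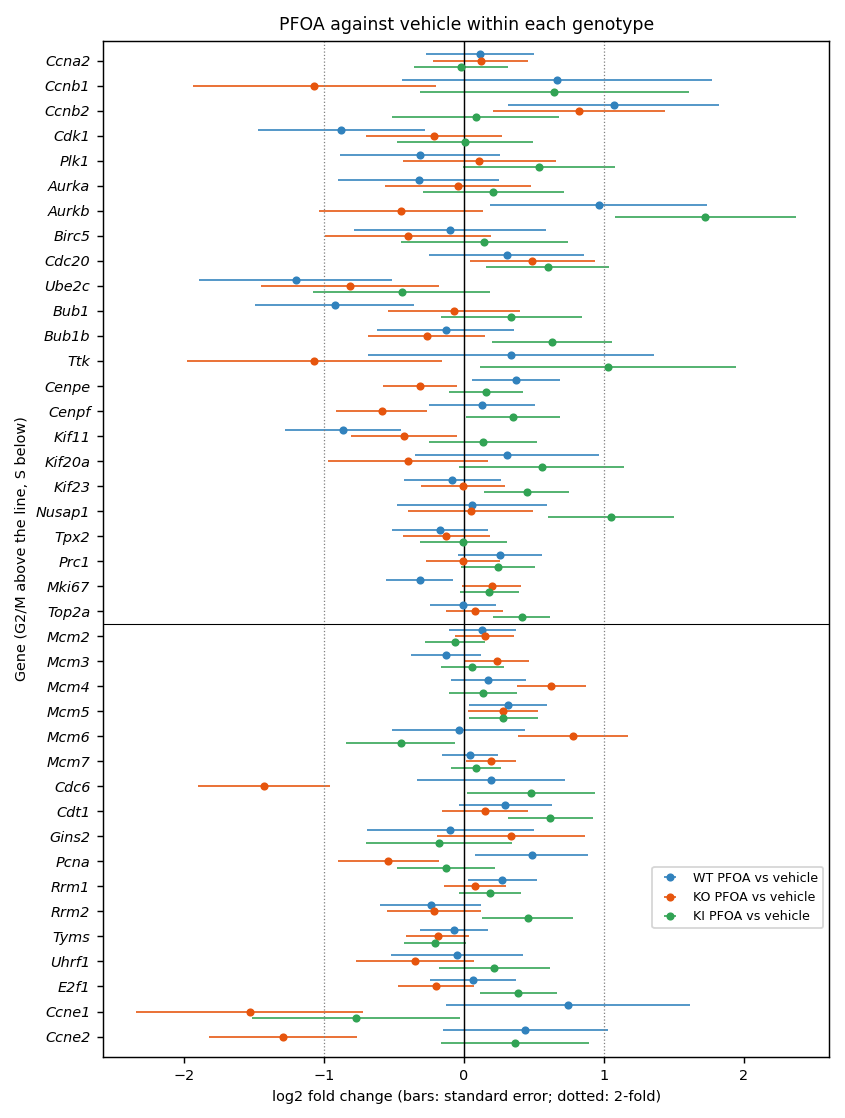
log2 fold change of PFOA against vehicle for each member (rows) in WT, KO and KI, with standard errors as bars and dotted lines at 2-fold. The estimates scatter on both sides of 0 in WT (-1.20 to 1.07) and KO (-1.53 to 0.82), and most KI values of G2/M members lie to the right of 0.

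The difference of the PFOA effect between genotypes was tested directly. KO minus WT gave 0 members called (0% of all genes) and 2 at an unadjusted p under 0.05 (7.46% of all genes), namely Cdc6 (difference of log2 fold changes -1.62, SE 0.71) and Ccne2 (-1.73, SE 0.79), both at an edgeR adjusted p of 0.669. With the i5 index as a covariate the difference was -2.19 for Cdc6 and -0.69 for Ccne2. KI minus WT gave 0 members called (0% of all genes) and 0 at an unadjusted p under 0.05 (4.58% of all genes). In an additive fit of genotype and exposure over the 17 libraries, 0 members were called (0% of all genes) and 2 had an unadjusted p under 0.05 (8.27% of all genes). These were Ube2c, which encodes the ubiquitin-conjugating enzyme of the anaphase-promoting complex (log2 fold change -0.80, SE 0.36, edgeR adjusted p = 0.589), and Mcm4 (0.32, SE 0.15, edgeR adjusted p = 0.592). DESeq2 called 0 members in these 3 comparisons as well. WT vehicle rests on 2 libraries. Without mouse 107 the members' median log2 fold change in WT was 0.27, beside 0.11 over all genes. Pcna was then at 1.73 and Kif11 at -1.29, against 1 remaining control with a low protein-coding share. That lone library is assumed to vary like the other groups, whose spread the fit uses.

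KO against WT compares the libraries labelled KO with WT, averaged over both waters, and the same WT libraries serve for KI. Most members that passed belong to G2/M. At an unadjusted p under 0.05 there were 10 of 40 members (25%), all higher, beside 13.9% of all genes in both directions and 8.24% of all genes among those higher. At an adjusted p under 0.2 there were 7 members (17.5%), beside 6.78% of all genes, and 2 of them, Mcm6 and Aurkb, were also over 2-fold and so called, beside 2.90% of all genes. By phase, 9 of 23 G2/M members and 1 of 17 S members had an unadjusted p under 0.05. The median log2 fold change was 0.58 over G2/M members, with 18 of 23 above 0, and -0.07 over S members, with 7 of 17 above 0, beside 0.03 over all genes. Top2a was the only member higher in every KO library than in every WT library, which 1.20% of all genes were.

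Both chromosome proteins were higher in KO. Top2a was at 7.48, 7.86, 9.21, 9.99 and 10.02 CPM in WT, and at 11.3 to 16.04 CPM in KO (median 12.9). Its log2 fold change was 0.60 (SE 0.16, edgeR adjusted p = 0.0570), a 1.51-fold difference. Mki67 was at 21.2, 24.9, 28.0, 30.1 and 31.3 CPM in WT, and at 26.3 to 51.9 CPM in KO (median 42.7), with 1 KO library, mouse 137, among the WT values (log2 fold change 0.60, SE 0.16, edgeR adjusted p = 0.0657).

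The spindle and kinetochore members rose in part. Cenpe, the kinesin that moves chromosomes to the spindle equator, was at 3.42, 3.60, 3.996, 5.27 and 6.14 CPM in WT and at 4.78 to 8.66 CPM in KO (median 6.91). Its log2 fold change was 0.68 (SE 0.21, edgeR adjusted p = 0.112). Cenpf, a large kinetochore protein, was at 3.93, 5.70, 10.2, 10.2 and 11.7 CPM in WT and at 8.24 to 20.5 CPM in KO (median 14.6). Its lowest WT value was that of mouse 122, and the log2 fold change was 0.72 (SE 0.25, edgeR adjusted p = 0.174). Kif23, a kinesin of the cytokinetic midbody, was at 3.42, 3.95, 4.59, 5.33 and 6.68 CPM in WT and at 6.19 to 10.6 CPM in KO (median 7.29), and the log2 fold change was 0.67 (SE 0.23, edgeR adjusted p = 0.171). Cenpe, Cenpf and Kif23 each overlapped between genotypes in a few libraries. The other 5 of this role, Kif11, Kif20a, Nusap1, Tpx2 and Prc1, had log2 fold changes of -0.05, 0.27, 0.71, -0.02 and 0.23 with no p under 0.05.

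Among the mitotic kinases, cyclins and checkpoint genes, Aurkb was at 0.164, 0.386, 0.533, 0.877 and 0.887 CPM in WT and at 0.745 to 1.76 CPM in KO (median 1.34). The log2 fold change of Aurkb was 1.35 (SE 0.49, edgeR adjusted p = 0.189), and it was past both thresholds in 11 of 32 other settings. Cdk1, the kinase that triggers mitosis, was at 0.380, 0.585, 0.655, 0.771 and 1.47 CPM in WT and at 1.41 to 2.07 CPM in KO (median 1.55). Only the highest WT library reached the KO values of Cdk1, and the log2 fold change was 1.04 (SE 0.39, edgeR adjusted p = 0.206), just outside the threshold. The other 2 with an unadjusted p under 0.05 were Cdc20, an activator of the anaphase-promoting complex (log2 fold change 0.95, SE 0.36), and the spindle checkpoint kinase gene Bub1 (0.85, SE 0.37). Ccnb1 had the largest log2 fold change of all members (1.41, SE 0.71) and no p under 0.05. KO vehicle 137 was at 4.61 CPM for Ccnb1 and the other 5 KO libraries were at 0.281 to 1.33 CPM. Plk1, a kinase of centrosomes and kinetochores, was at -0.54 (SE 0.39), the lowest of the 40. The remaining 7 of these roles, Ccna2, Ccnb2, Aurka, Birc5, Ube2c, Bub1b and Ttk, lay between -0.05 and 0.58 on the log2 scale without an unadjusted p under 0.05.

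Mcm6 was the single S phase member past an adjusted p of 0.2 against WT, and it was so in both engineered genotypes. Mcm6 is a subunit of the MCM ring of 6 proteins that unwinds DNA, which works as a complex of equal parts. It was at 11.1 (mouse 107) and 5.90 CPM (mouse 122) in WT vehicle and at 7.60, 8.77 and 8.61 CPM in WT PFOA. In KO it was at 3.46 (mouse 137), 19.0 and 22.1 CPM on vehicle and at 30.2, 27.3 and 21.1 CPM on PFOA. In KI it was at 25.6, 14.4 and 30.1 CPM on vehicle and 16.2, 15.3 and 19.7 CPM on PFOA. All KI libraries and 5 of 6 KO libraries were above all WT libraries, and KO vehicle 137 was the lowest of the 17. The log2 fold change was 1.25 in KO (SE 0.31, edgeR adjusted p = 0.0449, 2.37-fold) and 1.24 in KI (SE 0.31, edgeR adjusted p = 0.0657, 2.36-fold).

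None of the other 5 subunits passed the test in either genotype. Mcm2, Mcm3, Mcm4, Mcm5 and Mcm7 had log2 fold changes of 0.15, -0.30, -0.27, 0.10 and -0.09 in KO, and none had an unadjusted p under 0.05. Their median was -0.09 in KO and -0.09 in KI. As a share of the summed CPM of the 6 subunits, Mcm6 was 6.90% to 11.4% in WT, 6.33% to 26.01% in KO and 15.1% to 28.2% in KI. Without mice 122 and 137, which leaves a single WT vehicle library, the log2 fold change of Mcm6 was 1.28 in KO and 1.05 in KI. Among female libraries, with a single WT library on each water, it was 1.14 in KO (SE 0.48). On vehicle alone it was 0.84 in KO (edgeR adjusted p = 0.419) and 1.445 in KI (edgeR adjusted p = 0.294). On PFOA alone it was 1.65 in KO (edgeR adjusted p = 0.0907) and 1.03 in KI (edgeR adjusted p = 0.754). With the i5 index as a covariate it was 0.82 in KO (edgeR adjusted p = 0.517). It was past both thresholds in 28 of 32 other settings in KO (edgeR or DESeq2 adjusted p from 0.000592 to 0.577) and in 28 of 31 in KI (0.00208 to 0.754). No other annotated gene overlapped Mcm6 in GENCODE M21.

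**Figure D4:**
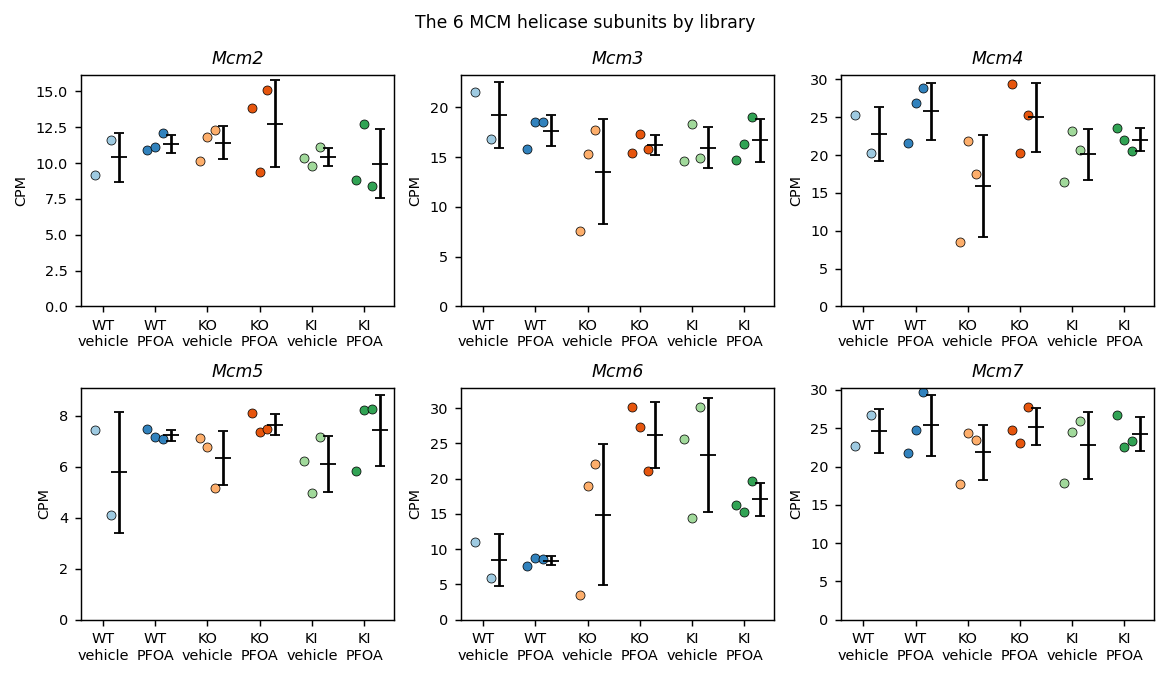
CPM of the 6 MCM helicase subunits in each library of the 6 groups, with each point 1 mouse and bars for the mean ± SD, every axis starting at 0. Mcm6 was at 5.90 to 11.1 CPM in WT and at 14.4 CPM or more in KI and in 5 of 6 KO libraries, while the other 5 subunits overlapped between genotypes.

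None of the remaining S phase members passed the test in KO against WT. Of the other helicase and licensing members, Cdc6, Cdt1 and Gins2 had log2 fold changes of 0.14, -0.29 and 0.06. Pcna, the sliding clamp of DNA polymerase, was at -0.07 (SE 0.27). The ribonucleotide reductase subunits Rrm1 and Rrm2 were at -0.27 and -0.26, the thymidylate synthase gene Tyms at -0.26 and the maintenance methylation factor Uhrf1 at 0.15. The G1/S regulators E2f1, Ccne1 and Ccne2 were at -0.0062, -0.32 and 0.0018. The scale is the log2 fold change of KO against WT, and none of these 11 had an unadjusted p under 0.05.

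Fewer members passed in KI against WT. At an unadjusted p under 0.05 there were 5 of 40 members (12.5%), beside 10.4% of all genes, and 1 member, Mcm6, passed an adjusted p under 0.2, beside 3.27% of all genes, and was called, beside 1.61% of all genes. The other 4 were Top2a (log2 fold change 0.43, SE 0.16, edgeR adjusted p = 0.284), Cdc20 (0.93, SE 0.36, edgeR adjusted p = 0.314), Cenpe (0.47, SE 0.21, edgeR adjusted p = 0.417) and Tyms (-0.42, SE 0.16, edgeR adjusted p = 0.321). Top2a was at 10.1 to 16.6 CPM in KI (median 10.9) against 10.02 CPM or less in WT. Top2a and Mcm6 were the members higher in every KI than in every WT library, as were 0.943% of all genes. The median log2 fold change was 0.21 over G2/M members, with 16 of 23 above 0, and -0.09 over S members. The G2/M median was 0.066 on vehicle alone, with 13 of 23 above 0, and 0.33 on PFOA alone, with 20 of 23 above 0. KI and KO share the WT libraries, so the 2 comparisons are not independent.

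**Figure D5:**
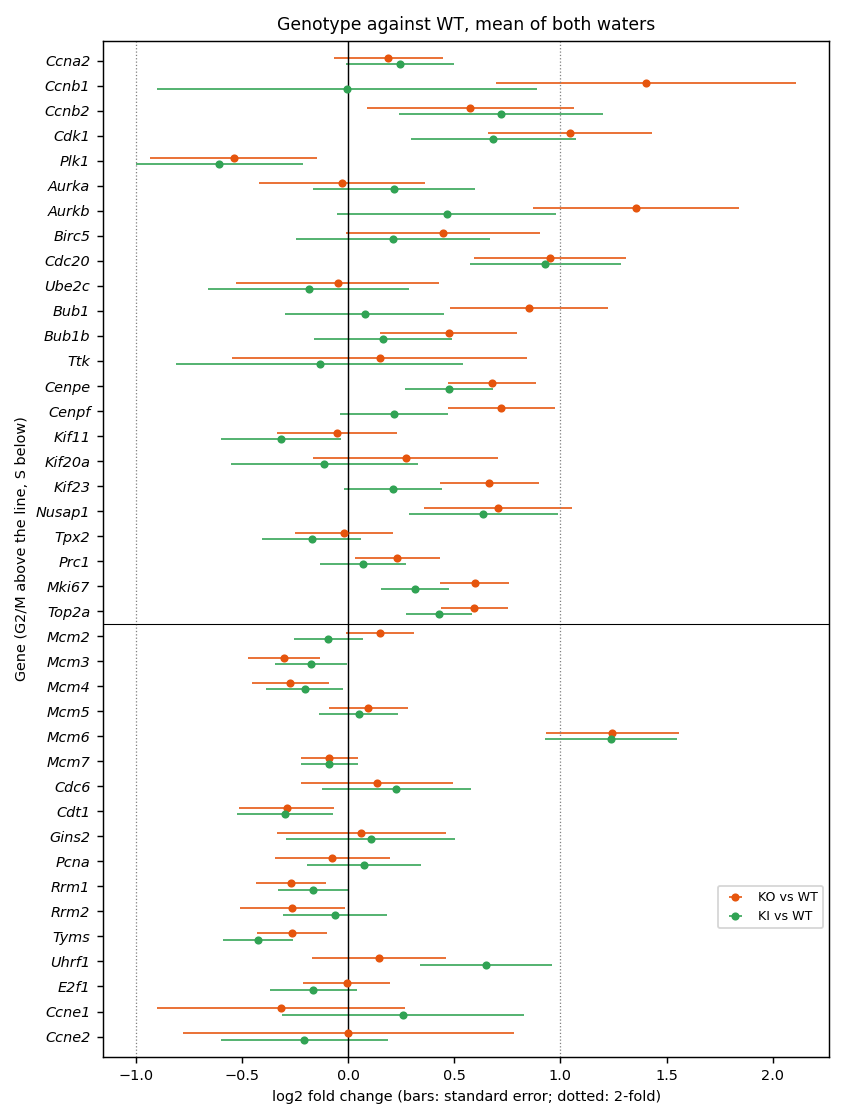
log2 fold change against WT for each member (rows) in KO and in KI, averaged over both waters, with standard errors as bars and dotted lines at 2-fold. KO values of G2/M members lie mostly right of 0 (18 of 23), and Mcm6 stands alone among S members at 1.25 in KO and 1.24 in KI.

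KI against KO, which shares no WT library, gave 0 members called with edgeR (0.00742% of all genes) and 0 at an adjusted p under 0.2 (0.00742% of all genes). At an unadjusted p under 0.05 there were 4 members, all lower in KI, beside 4.74% of all genes. They were Bub1 (log2 fold change -0.77, SE 0.35), Ccnb1 (-1.41, SE 0.65), Cenpf (-0.50, SE 0.23) and Kif23 (-0.45, SE 0.21), all at an edgeR adjusted p of 0.9999. Of the 23 G2/M members 20 were lower in KI, with a median of -0.24, while 48.9% of all genes were higher. On vehicle alone 20 were lower, with a median of -0.47, and on PFOA alone 12 were higher and 11 lower, with a median of 0.019. DESeq2 called 0 members. Whether KO and KI differ in single members was not resolved at this depth and number of mice.

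Genotype effects in KO depended on which libraries entered. On vehicle alone the G2/M members had a median log2 fold change of 0.60 with 4 of 23 at an unadjusted p under 0.05 (14.2% of all genes), and on PFOA alone 0.36 with 6 of 23 (7.65% of all genes). Among female libraries, which hold all KO mice and 2 WT mice, the median was 0.76 with 22 of 23 above 0, and 7 were higher and 1 lower at an unadjusted p under 0.05 (8.11% of all genes). Without mice 122 and 137 it was 0.49 with 5 of 23 (12% of all genes). Cenpf and Kif23 were not at an adjusted p under 0.2 without them, and Mki67 (0.69, edgeR adjusted p = 0.0451), Top2a (0.55, edgeR adjusted p = 0.179) and Cenpe (0.71, edgeR adjusted p = 0.195) were. With the i5 index as a covariate it was 0.55 with 7 of 23 (8.97% of all genes), none at an adjusted p under 0.2. The direction of the G2/M median in KO was the same in these subsets, while the number of members past a threshold changed. Single members depended on the water. The log2 fold change on vehicle and on PFOA was 1.02 and 0.33 for Cenpe, 1.08 and 0.36 for Cenpf, and 2.06 and 0.65 for Aurkb. It was 0.34 and 0.85 for Mki67, 0.63 and 0.70 for Kif23, and 0.55 and 0.64 for Top2a. In the direct test of KO minus WT, none of these members had an unadjusted p under 0.05.

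Of a wider list of 77 other cell cycle genes, chosen with earlier results of these data known, all were tested. In KO against WT 15 were higher and 4 lower at an unadjusted p under 0.05, beside 13.9% of all genes in both directions and 8.24% higher, and 4 were called, beside 2.90% of all genes. Of its 30 further mitosis genes 11 were higher and 0 lower, and of its 13 further replication genes 0 were higher and 1 lower. Pttg1, which encodes securin, the inhibitor of the protease that splits sister chromatids, was at 0.164, 0.666, 0.731, 0.760 and 1.29 CPM in WT, at 2.14 to 6.45 CPM in KO (median 2.90) and at 2.28 to 4.37 CPM in KI (median 3.61). No KO or KI library overlapped WT for Pttg1, and its log2 fold change was 2.36 in KO (SE 0.39, edgeR adjusted p = 0.00285) and 2.42 in KI (SE 0.39, edgeR adjusted p = 0.00283). Cenpa, the histone variant of centromeres, was at 3.20 to 3.98 CPM in WT, at 5.18 to 13.4 CPM in KO and at 3.63 to 9.87 CPM in KI. Its log2 fold change was 1.10 in KO (SE 0.24, edgeR adjusted p = 0.0219) and 0.88 in KI (SE 0.24, edgeR adjusted p = 0.104).

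E2f3, an activating E2F factor, was at 2.13 to 5.27 CPM in WT, 5.53 to 8.90 in KO and 6.49 to 8.68 in KI, without overlap with WT. Its log2 fold change was 0.90 in KO (SE 0.19, edgeR adjusted p = 0.0163) and 0.97 in KI (SE 0.19, edgeR adjusted p = 0.0131). Among the genes lower in KO, Cdkn1c, a kinase inhibitor, was at 28.8 to 47.0 CPM in WT and 19.6 to 34.3 in KO (log2 fold change -0.55, SE 0.14, edgeR adjusted p = 0.0551). Over 32 other settings the log2 fold change of Cdkn1c was -0.71 to -0.30. Btg2, an antiproliferative target of p53, was at 109.5 to 117.2 CPM in WT and 71.9 to 107.1 in KO, without overlap (log2 fold change -0.37, SE 0.11, edgeR adjusted p = 0.0768). The log2 fold change of Btg2 was -0.61 on vehicle alone and -0.14 on PFOA alone. PFOA against vehicle within KO gave 0.42 (SE 0.14, edgeR adjusted p = 0.474). In KI against WT, 4 of the 77 were higher and 3 lower at an unadjusted p under 0.05 (10.4% of all genes), and Pttg1 was the 1 called (1.61% of all genes). With PFOA, 0 of the 77 were called in WT, KO or KI, and 7, 12 and 4 had an unadjusted p under 0.05, beside 7.35%, 9.79% and 2.59% of all genes.

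Markers of B and NK cells, and some of megakaryocytes and neutrophils, moved with genotype beside the members. All 7 B cell markers were higher in KO and in KI than in WT at an unadjusted p under 0.05, with a summed level of 11.0 to 32.7 CPM in WT, 31.6 to 121.4 in KO and 17.7 to 159.7 in KI. All 5 tested NK cell markers were likewise higher in both, with 1.97 to 15.2 CPM in WT, 15.7 to 45.8 in KO and 13.2 to 30.6 in KI, and Ncr1 and Eomes were each at 0 in 1 library. Of 8 T cell markers, 2 were higher in KO and 1 in KI at an unadjusted p under 0.05 and 0 passed an adjusted p under 0.2 with edgeR, with sums of 18.3 to 49.6 CPM in WT, 26.2 to 71.2 in KO and 31.9 to 52.6 in KI. Of 6 germinal centre B cell markers, 1 was higher and 3 lower in KO at an unadjusted p under 0.05, with sums of 110.1 to 137.4 CPM in WT, 86.8 to 112.9 in KO and 92.3 to 131.1 in KI. Of 6 megakaryocyte markers, 3 were higher and 1 lower in KO, and 4 higher and 1 lower in KI, at an unadjusted p under 0.05. Their sums were 9.46 to 15.8 CPM in WT, 11.0 to 40.3 in KO and 15.8 to 45.7 in KI. Of 5 tested neutrophil markers, 3 were higher in KO and 0 in KI, with sums of 1.465 to 7.325 CPM in WT, 3.66 to 19.8 in KO and 2.39 to 14.4 in KI. Club cell markers were lower in KO for 4 of 5 (8118 to 27740 CPM in WT, 5596 to 9155 in KO). Among the marker lists, the Spearman correlation with the G2/M sum over the 17 libraries was highest for fibroblast (0.623) and lowest for club cell markers (-0.485). It was 0.480 for NK cell, 0.316 for neutrophil, 0.297 for B cell, 0.208 for megakaryocyte and -0.338 for germinal centre B cell markers. Thymocyte markers were at 3.28 to 15.2 CPM in WT and 5.21 to 15.2 in KO, with Dntt and Ptcra at 0 in 7 libraries each. The part of these cells in the members' levels was not tested.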

How the data were processed

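Total RNA of 17 mouse lungs was made into libraries with a stranded total RNA kit. The authors trimmed reads of poor quality at the 3′ end, used STAR 2.6 within Partek Flow for alignment to mm10, estimated counts with an expectation-maximization model summed to genes, and deposited these estimated counts without normalization. Of all values, 27.8% are not whole numbers (tolerance 0.001). The annotation release and the use of strand in counting are not given in the sources used here. Without strand, reads of members that overlap a gene on the opposite strand (among them Ccna2, Cdc20, Ube2c, Kif20a, Nusap1, Prc1, Mcm7 and Ccne2) cannot be told from that gene's, and Ccnb1, Ccnb2, Pcna and Tyms have named pseudogenes. GENCODE M21, of that build, held 96.7% of the gene names, and the start was identical for 99.4% of them.

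Counts were rounded. A gene was tested when its counts summed to 20 or more (4299 genes were below). edgeR 4.0.16 (R 4.3.3) with TMM factors and 6 group means was fitted over all 17 libraries by the quasi-likelihood method, with Benjamini-Hochberg adjustment over the 26946 genes. A gene was called at an adjusted p below 0.2 with more than 2-fold change, after the study's thresholds. Labels describe 1 mouse per library, and p-values measure the spread between these mice. The members, the list of 77 other cell cycle genes and the marker lists were chosen with earlier results of these data known. Genes named with a test were members with an unadjusted p under 0.05 (at most the 8 smallest per comparison) and other cell cycle genes likewise (at most 5). Ccnb1, Plk1, Cdc20, Bub1, Top2a in KI with PFOA, and Pcna and Kif11 without mouse 107 were named after their values were seen. Marker lists were summed in CPM. Motifs were counted in RefSeq promoters (GRCm38.p6).

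Alternatives were DESeq2 1.42.0 with and without its filters, other scaling and filters, sex, i5 index or protein-coding share as a covariate, robust estimation, other thresholds, subsets of libraries and each library left out. On simulated counts for 26466 genes with the WT PFOA comparison changed 4-fold in 200 genes, edgeR recovered 192 with 29 other calls, and made 0 calls in KO, where nothing was changed. The changed genes were drawn from genes with higher mean counts than the lowest members have. Recovery of such members, or of smaller changes, was therefore not measured. Other software was scipy 1.17.1, numpy 2.4.6 and pandas 2.3.3 under Python 3.11.15, and matplotlib 3.10.9 for the figures.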

Additional observations from a re-analysis of the deposited data

How the results depend on the processing

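With PFOA, 0 members were called in KO, in KI, in the additive fit and in KI minus WT under any alternative. Leaving out 1 library outside WT vehicle gave 0 calls in WT and in KO minus WT. Leaving out a WT vehicle library leaves 1, which is assumed to vary like the other groups. With any 1 library left out, the members' median log2 fold change ranged from -0.095 to 0.27 in WT. It ranged from -0.25 to 0.023 in KO minus WT and from 0.076 to 0.41 in KI minus WT. Without mouse 107 it was 0.27 in WT and -0.25 in KO minus WT, beside 0.11 and -0.13 over all genes. Without mice 122 and 137 the median was -0.10 in WT and 0.37 in KI minus WT. In KO minus WT it was -0.15 with upper-quartile factors (-0.18 over all genes) and -0.24 with i5 index as covariate (0.034 over all genes).

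In KO against WT, the 2 members called became 7 at an adjusted p under 0.2 with no fold threshold and 1 at an adjusted p under 0.05 with none. There were 3 with RLE factors, with upper-quartile factors, with filterByExpr and with the protein-coding share as a covariate. The share of all genes at an adjusted p under 0.2 was 7.02%, 7.04%, 9.14% and 11.6% in these, in that order. It was 6.78% in the main fit. There was 1 with DESeq2 without its filters, with no count filter, with sex as a covariate, with PFOA libraries only and with the 4 groups compared only. In these the same share of all genes was 7.19%, 4.98%, 3.18%, 1.53% and 5.73%. There were 0 with i5 index as covariate, with female libraries only (median 0.31) and with vehicle libraries only (median 0.40). Leaving out 1 library gave 1 to 5 calls, 5 without WT vehicle 107 (Aurkb, Cdk1, Cenpf, Mcm6 and Nusap1), and a median of 0.074 to 0.35.

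In KI against WT, the 1 call became 0 at an adjusted p under 0.05, with vehicle libraries only (median 0.0058) and with PFOA libraries only (median 0.19). At an adjusted p under 0.2 were 1.11% of all genes on vehicle and 0.668% on PFOA. Without mice 122 and 137 the median was 0.0048. Leaving out 1 library outside WT vehicle kept the 1 call. With any 1 library left out the median was 0.0039 to 0.27, the lowest without WT vehicle 122. In KI against KO the median was -0.28 on vehicle and 0.034 on PFOA, and Btg2 turned from 0.28 to -0.11 on PFOA. The cause of these changes was not tested. No paired analysis was possible because the groups share no replicate numbers. Depth limits the members under 1 CPM, where 3 counts are 0.325 to 0.729 CPM.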

Other observations

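Genes outside the list were ranked by their likeness to the members over the 17 libraries, as the Spearman correlation with the mean of the members' standardized log2 CPM among the 13357 genes that averaged 5 CPM or more. The most alike were Coa5, an assembly factor of cytochrome c oxidase (0.799), A530083M17Rik (0.794), Mcph1, the microcephalin gene, whose product restrains mitotic entry (0.762), Prorsd1 (0.752), the inhibitory immune receptor gene Lair1 (0.750), Gm48600 (0.745), Zfp874a (0.745) and Itgb6, an integrin subunit of epithelium (0.743). None of them is among the 77 other cell cycle genes. These values describe the 17 libraries and were given no test.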
